A study of Mus musculus with 19 samples.

Results

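The stretch of mouse chromosome 5 just below the Shh gene carries the genes Insig1, En2, Cnpy1 and Rbm33 and was described here as a neighbour of the Shh domain. It was taken as all pairs of 10 kb bins whose starts both lie from 28380001 to 28750001 (mm9 build) and whose separation is 20 kb or more, which gave 666 bin pairs of 38 bins, out of 38781 pairs at 20 kb or more in the captured region of 280 bins. The stretch spans 380 kb, and its last bin lies 40 kb below the bin that holds the Shh promoter. Contacts come from capture Hi-C: fixed chromatin is cut with DpnII, ends that lie close together are ligated, and 1 genomic region is enriched with probes and sequenced as read pairs. The 19 samples form 9 groups, and each group was deposited as 1 merged map. Limb buds and midbrain came from E10.5 embryos. Wild type limb bud (3 samples) and wild type midbrain (2 samples) are C57BL/6, and wild type embryonic stem (ES) cells (2 samples) are G4, a hybrid mouse ES cell line. The other 6 groups, of 2 samples each, are G4 embryos edited with CRISPR-Cas9: limb buds with deltaCTCF i4i5, deltaCTCF i4i5ZRS, deltaZRSreg, deltaCTCF i4i5ZRSreg or Lmbr1deltaprom/deltaprom (both copies of the Lmbr1 promoter deleted), and midbrain with deltaCTCF i4i5ZRS. The ZRS, the limb enhancer of Shh, and Lmbr1, which contains it, lie on the other side of Shh, and the labels name no change within the stretch. Midbrain and limb share strain and genotype in 2 comparisons, in wild type and in i4i5ZRS. ES cells against wild type tissue, and each edited group against wild type, differ in strain as well, and strain cannot be told apart from cell type or genotype there. A contact value does not separate a change in how many cells hold a contact from a change in how often each cell does, and the assay has no marker by which the labelled tissues could be checked.

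Chromosomes are folded into domains within which DNA segments meet more often than across the borders. Loops between segments are made by the cohesin complex and are often held at sites of the DNA-binding protein CTCF, and the pattern can differ between cell types. Insig1 encodes a membrane protein of the endoplasmic reticulum that restrains cholesterol synthesis, En2 a homeobox transcription factor best known from the midbrain and hindbrain, Cnpy1 a protein linked to FGF signalling, and Rbm33 an RNA-binding protein. Shh, the next gene along, encodes the signal Sonic hedgehog. In the gene table used, which is of another build, the protein-coding genes follow each other as Insig1, En2, Cnpy1, Rbm33 and Shh, and no gene is placed at a bin below. To show what lies at the gene starts of the stretch, the 250 bases upstream of 3 of them are given 5′ to 3′ from RefSeq (GRCm38.p6, whose coordinates are not those of the bins). Capitals mark a match to a 7-base word from the core of the CTCF motif, searched on both strands: AGNNGGC, with G or A as the third letter and G or T as the fourth. 23.6% of the 32851 upstream sequences in the table hold such a match, so a match is common and describes letters only.
Insig1, chr5:28071162-28071411, plus strand: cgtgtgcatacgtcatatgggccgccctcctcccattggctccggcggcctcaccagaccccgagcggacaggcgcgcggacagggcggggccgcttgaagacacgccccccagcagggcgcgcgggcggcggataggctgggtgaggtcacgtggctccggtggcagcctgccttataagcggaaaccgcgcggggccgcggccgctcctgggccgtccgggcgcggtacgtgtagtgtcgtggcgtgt
Cnpy1, chr5:28210169-28210418, minus strand: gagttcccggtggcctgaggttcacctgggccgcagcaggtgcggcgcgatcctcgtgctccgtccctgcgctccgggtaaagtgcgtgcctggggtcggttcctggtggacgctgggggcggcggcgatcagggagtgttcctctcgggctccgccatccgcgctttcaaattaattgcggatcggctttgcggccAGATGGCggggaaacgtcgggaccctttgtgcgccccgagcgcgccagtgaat
Rbm33, chr5:28316939-28317188, plus strand: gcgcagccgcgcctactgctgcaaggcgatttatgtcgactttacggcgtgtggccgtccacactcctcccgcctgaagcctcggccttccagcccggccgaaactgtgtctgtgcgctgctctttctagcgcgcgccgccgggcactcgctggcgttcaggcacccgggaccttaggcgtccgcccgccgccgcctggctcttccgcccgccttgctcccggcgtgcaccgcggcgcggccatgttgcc
Of these sequences the one of Cnpy1 held a match, AGATGGC from position 198, and those of Insig1 and Rbm33 held none. Cnpy1 has a further upstream sequence in the table, without a match. The 3 shown have GC contents of 72.8% (Insig1), 67.2% (Cnpy1) and 70.8% (Rbm33). The maps, at 10 kb a bin, do not resolve these letters.

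Values are given as observed over expected, meaning the deposited balanced signal of a bin pair over the average signal of every pair equally far apart in that map, so 1 is the level typical of the separation. Whole contact counts could be recovered from the balanced signal, and they give the depth behind each value. The maps held 1177173 (limb i4i5) to 3218492 (ES cells) contacts, of which 63683 to 177582 fell on the 666 pairs of the stretch. No pair of the stretch was at 0 in any map, and the lowest count was 9. Because samples were merged before deposit there is no spread between replicates, no test was made and no p-value is given. Ranges in parentheses are 95% intervals from the counts. They hold for counting error alone and set library against library. The last bin of the stretch was thinly covered, with 12550 contacts in wild type limb against a median of 22635 over the bins of the stretch. It was not alone: the lowest other bin had 13819 in that map. In 3 maps another bin was thinner than the last: limb i4i5ZRS (8473 against 8635), limb ZRSreg (11413 against 11603) and midbrain i4i5ZRS (9461 against 9627).

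In 5 of the 6 limb bud maps contact within the stretch was slightly below the level typical of the separation, and in the Lmbr1 promoter deletion, midbrain and ES cells it was above it. Mean observed over expected over the 666 pairs was 0.960 (0.954 to 0.966; SD over pairs 0.236) in wild type limb. The wild type midbrain map had 1.11 (1.10 to 1.11; SD 0.284), and the ES cell map 1.12 (1.11 to 1.13; SD 0.303). In the edited limb maps it was 0.969 for i4i5, 0.988 for i4i5ZRS, 0.967 for ZRSreg, 0.968 for i4i5ZRSreg and 1.04 for the Lmbr1 promoter deletion. Midbrain i4i5ZRS had 1.11. The 6 limb maps therefore lay from 0.960 to 1.04 and did not overlap the 2 midbrain maps or the ES cell map. On recovered counts without balancing all 9 maps lay above 1, the limb maps from 1.24 to 1.34, midbrain at 1.48 and 1.46 and ES cells at 1.39, so the side of 1 on which limb falls depends on the balancing and the order of limb below the other maps does not. Single pairs of wild type limb ranged from 0.50 to 2.62, those of wild type midbrain from 0.52 to 2.52 and those of ES cells from 0.42 to 2.48.

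The edges of the stretch were unequal. Contact between the stretch and the Shh domain above it was 0.569 in wild type limb, while wild type midbrain had 0.489, ES cells 0.508 and the 9 maps from 0.445 to 0.633, which places a border at its upper end in every map. Contact between the stretch and the captured bins below it was 1.07, 1.03 and 1.04 in the same 3 maps and from 1.03 to 1.11 over all 9. By separation, contact across this lower edge at 100 to 190 kb was 0.940 in wild type limb, 0.865 and 0.861 in the midbrain maps and 0.863 in ES cells. At 200 to 370 kb it was 1.11, 1.09, 1.13 and 1.09 in the same maps. The lower edge was thus crossed far more often than the upper one, with less contact at the middle separations in midbrain and ES cells than in wild type limb, and the label of a domain is clear at the upper end only. The first bin inside, 28380001, had a mean of 0.915 over the 9 maps for its contacts with the stretch and the bin just outside, 28370001, had 0.880. At the upper end the last bin inside, 28750001, had 0.919 and the next one, 28760001, had 0.886.

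**Figure D1:**
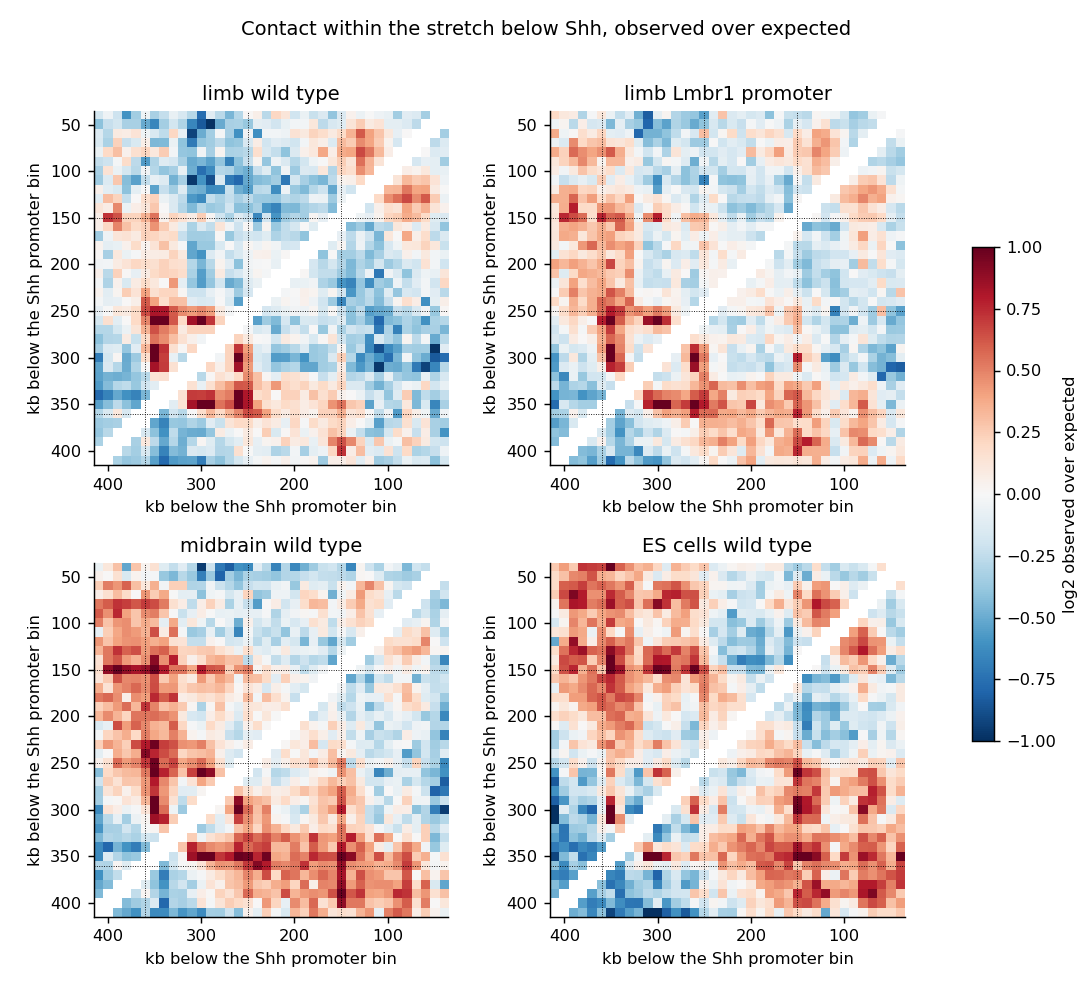
Contact of every bin pair of the stretch at 20 kb or more in 4 maps, as log2 of observed over expected (red above, blue below the mean of the separation), with both axes in kb below the Shh promoter bin and dotted lines at the sub-borders 360, 250 and 150 kb below it. The corner that joins the 2 ends of the stretch is blue to pale in wild type limb and red in midbrain and ES cells.

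The difference between tissues grew with separation. At 20 to 90 kb (260 pairs) the mean of wild type limb was 1.01, that of wild type midbrain 1.04 and that of ES cells 0.978. At 100 to 190 kb (235 pairs) it was 0.939, 1.12 and 1.12. At 200 to 370 kb (171 pairs) it was 0.921 (0.905 to 0.937), 1.19 (1.17 to 1.21) and 1.34 (1.32 to 1.36). ES cells were thus the lowest of these 3 maps at the short separations and the highest at the long ones. On the log2 scale midbrain over limb was 0.05, 0.25 and 0.37 (0.33 to 0.40) in the 3 ranges of separation in wild type. In i4i5ZRS, whose libraries the wild type comparison does not use, it was 0.04, 0.21 and 0.33 (0.29 to 0.37). The same ratio at 200 to 370 kb was 0.10 in the Shh domain in both genotypes, and -0.05 in wild type and -0.08 in i4i5ZRS in the bins below the stretch. ES cells over limb at 200 to 370 kb was 0.54 (0.51 to 0.57) in the stretch, 0.16 in the Shh domain and 0.02 below the stretch. The intervals of the stretch do not overlap those of the Shh domain or of the bins below in any of these 3 comparisons.

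**Figure D2:**
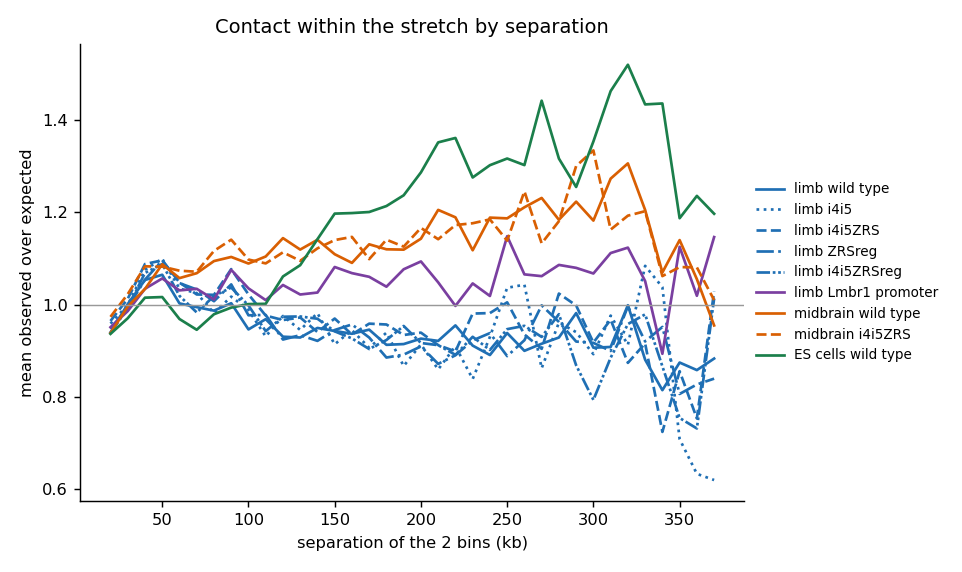
Mean observed over expected of the stretch (y axis) against the separation of the 2 bins in kb (x axis), 1 line per map, with no error drawn; the longest separations rest on few pairs (1 pair at 370 kb). The maps lie close together below 100 kb, and at 200 to 370 kb 5 limb maps average 0.911 to 0.940, the Lmbr1 promoter deletion 1.06, midbrain 1.18 to 1.19 and ES cells 1.34.

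Over the whole stretch midbrain was higher than limb by 0.20 on the log2 scale in wild type (0.19 to 0.22; 499 of 666 pairs higher) and by 0.17 in i4i5ZRS (0.16 to 0.19; 455 of 666 pairs higher). ES cells were higher than limb by 0.22 (0.21 to 0.24; 447 pairs higher), and ES cells and midbrain differed by 0.02 (0.01 to 0.03; 335 pairs higher in ES cells). The median over all 9378 pairs of the captured region at 20 to 370 kb was 0.00 for midbrain over limb in both genotypes and -0.04 for ES cells over limb. The size depends on the scaling: as the share of each map's signal, with no expected value, midbrain over limb was 0.07 in wild type and 0.13 in i4i5ZRS, and ES cells over limb 0.12.

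The difference was largest between the 2 ends of the stretch. Pairs that join the ends are also far apart, 130 to 370 kb with the sections used below. This result and the growth with separation therefore share pairs, and place and separation cannot be told apart by it. The stretch was cut by position into a lower section of 13 bins (28380001 to 28510000), a middle section of 12 bins (28510001 to 28630000) and an upper section of 13 bins (28630001 to 28760000). Contact between the lower and the upper section (169 pairs) was 0.916 in wild type limb (0.900 to 0.931), 0.919 in i4i5, 0.946 in i4i5ZRS, 0.908 in ZRSreg, 0.897 in i4i5ZRSreg and 1.08 in the Lmbr1 promoter deletion. The block had 1.22 in both midbrain maps (1.20 to 1.24 each) and 1.37 in ES cells (1.35 to 1.39). All 6 limb maps were below both midbrain maps, and with balanced signal ES cells were above all other maps. The log2 ratio of midbrain over limb in this block was 0.41 in wild type (0.38 to 0.45; 161 of 169 pairs higher) and 0.37 in i4i5ZRS (0.32 to 0.41; 146 pairs higher), and that of ES cells over limb was 0.58 (0.55 to 0.61; 162 pairs higher). As a share of the map's signal with no expected value the wild type midbrain ratio was 0.32. On recovered counts without balancing it was 0.45, and that of ES cells over limb was 0.46. The size of the ES cell excess over midbrain in this block thus depends on the balancing.

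The other blocks of the stretch differed by less or in the other direction. Between the lower and the middle section midbrain stood above limb, at 1.30 against 1.09 in wild type and 1.30 against 1.13 in i4i5ZRS, while ES cells had 1.11. Between the middle and the upper section wild type limb had 0.862, midbrain 0.939 and ES cells 1.04. Within the middle section the same maps had 0.923, 1.03 and 1.04. Within the lower section limb and midbrain were near each other at 0.934 and 0.955, and ES cells were lower at 0.824 (0.813 to 0.835). Within the upper section midbrain was lower than limb, at 0.963 (0.947 to 0.979) against 1.07 (1.05 to 1.08) in wild type and at 0.965 against 1.07 in i4i5ZRS. These are log2 ratios of -0.15 in each genotype, with 10 and 14 of 66 pairs higher in midbrain; on recovered counts without balancing they were -0.06 and -0.04, and the ratio of ES cells over limb in this block went from -0.02 to -0.28, below both. Both midbrain maps thus had more contact between the ends of the stretch and between its lower and middle sections. They had less contact inside its upper end, next to the Shh border.

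**Figure D3:**
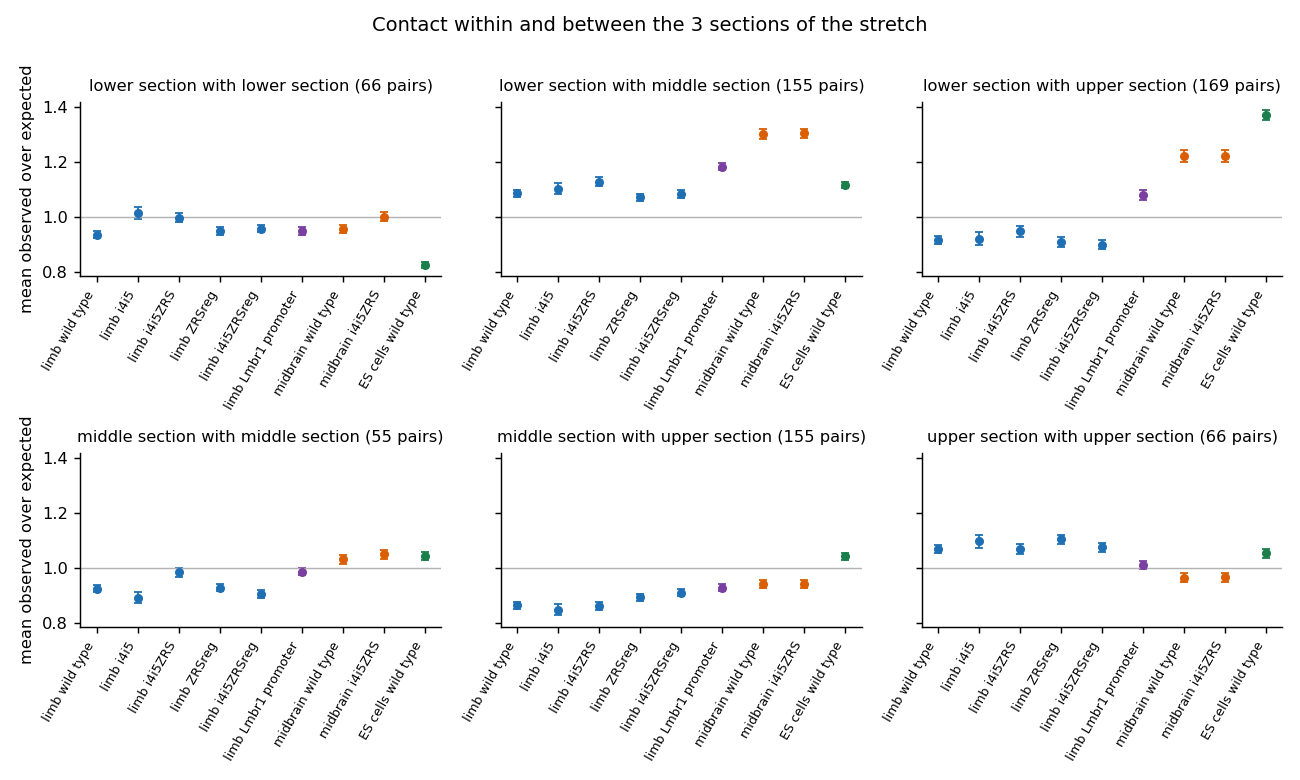
Mean observed over expected (y axis) within and between the lower, middle and upper section of the stretch in each of the 9 maps (x axis); bars are 95% counting intervals. In the block that joins the lower and upper section the 6 limb maps lie from 0.897 to 1.08, the midbrain maps at 1.22 and ES cells at 1.37, and within the upper section the midbrain maps are the lowest with balanced signal (on unbalanced counts ES cells have a lower ratio to limb there).

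Pair by pair, values were compared as the mean of the 3 by 3 bin pairs around each pair. Both midbrain maps lay above all 6 limb maps at 390 of the 666 pairs (58.6%), where 10.9% of all 9378 pairs at these separations did so, and below all 6 at 70 pairs, where 11.8% of all pairs did. Leaving out each limb map in turn gave 390 to 408 pairs above and 70 to 87 below. Single bin pairs without the 3 by 3 mean gave 216 above and 38 below, and unbalanced counts gave 380 above and 19 below, so the count below depends on the balancing. In the block of the lower with the upper section 149 of 169 pairs were above. Between the lower and the middle section 119 of 155 pairs were above. Within the upper section 0 of 66 pairs were above and 43 below. With a fold of 1.5 as the call, 17 pairs of the stretch were higher in wild type midbrain than in limb (0.373% of all pairs were) and 0 were lower (0.576% of all pairs). In i4i5ZRS 7 were higher (0.171% of all pairs) and 0 lower (1.71% of all pairs). Of the 17 pairs 16 joined the lower with the upper section, and all 7 did. Most of the difference therefore lay under 1.5-fold, and these counts changed with the smoothing: single bin pairs gave 69 and 64, and a 5 by 5 mean 3 and 0.

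The 2 comparisons of midbrain with limb share no library, so 1 can be read against the other. Over the 666 pairs their log2 ratios correlated with a Pearson's r of 0.88 and a Spearman's rho of 0.89. This is a description only, because neighbouring pairs share bins and the 3 by 3 mean. Both were above 0 at 476 pairs, both below 0 at 120, and opposite at 70. Over the 8712 pairs outside the stretch at these separations r was 0.62 and rho 0.52. There both were above 0 at 2668 pairs, both below 0 at 3132, and opposite at 2912. All 17 pairs called in wild type were higher in midbrain in i4i5ZRS also, by a median of 0.43 on the log2 scale and by 0.32 at the least, and 0 of them reached 1.5-fold there. Outside the stretch 18 pairs were called in wild type, and 18 of these too were higher in midbrain in i4i5ZRS. Their median there was 0.52, with 4 past 1.5-fold, so the agreement of called pairs is not particular to the stretch.

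**Figure D4:**
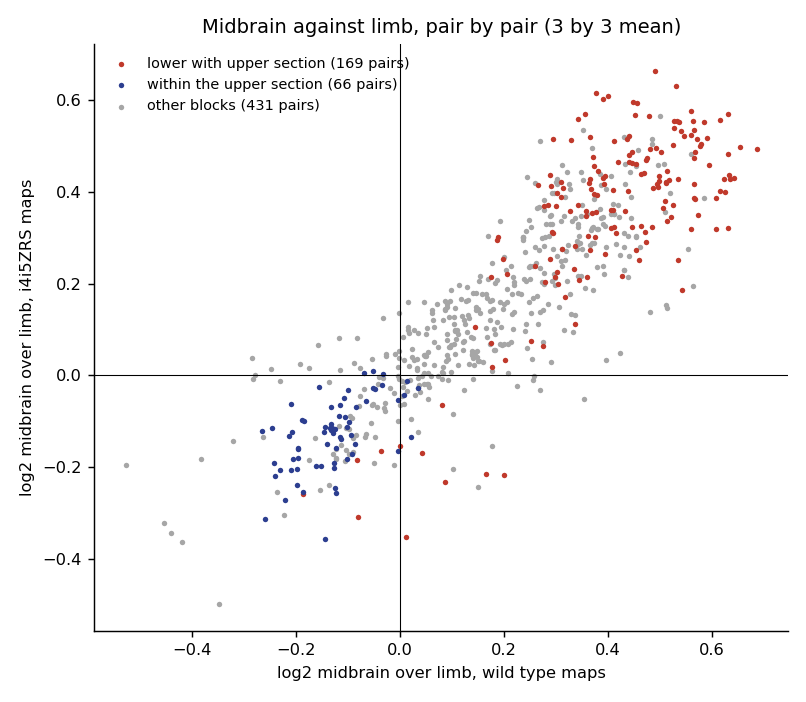
Log2 ratio of midbrain over limb at each of the 666 pairs of the stretch (3 by 3 mean), in wild type maps (x axis) and in i4i5ZRS maps (y axis), 1 point per pair and no error drawn. Pairs of the lower with the upper section (red) lie mostly above 0 on both axes and pairs within the upper section (blue) mostly below.

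The pairs with the highest ratio of midbrain over limb in wild type are named by rule, so their wild type values describe the choice and the i4i5ZRS maps are the ones the choice did not use. The first joins the bins 28430001 and 28690001, 260 kb apart. Wild type limb had 0.82 (564 contacts in the 3 by 3 pairs), wild type midbrain 1.33 (649 contacts) and ES cells 1.30. In i4i5ZRS it had 0.88 in limb and 1.24 in midbrain, a log2 ratio of 0.49 (0.29 to 0.70). The limb maps ranged from 0.81 to 1.10, below both midbrain maps. The second joins 28500001 and 28650001, 150 kb apart. Wild type limb had 0.86, wild type midbrain 1.33 and ES cells 1.69, and the values were 0.99 against 1.35 in i4i5ZRS (0.44, 0.30 to 0.58). The highest limb value, 1.14, was again in the Lmbr1 promoter deletion. The third joins 28380001 and 28710001, 330 kb apart and close to the full length of the stretch. Wild type limb had 0.84 and wild type midbrain 1.30, and the values were 0.88 against 1.31 in i4i5ZRS (0.57, 0.39 to 0.75). The intervals of all 3 pairs in i4i5ZRS lie above 0.

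The 3 lowest ratios of midbrain over limb that are named, which the rule keeps 50 kb apart in 1 of the 2 bins, all involve the thinly covered last bin, 28750001. Pairs centred on the bin next to it had like values: 28580001 with 28740001 had -0.32 and 28600001 with 28740001 had -0.28. Both were named after their values were seen. Their 3 by 3 means take in the last bin, so they do not stand apart from it. The pair of the last bin with 28560001 had 1.00 in wild type limb and 0.69 in midbrain, and 0.86 against 0.75 in i4i5ZRS (log2 ratio -0.20, -0.45 to 0.06). Its pair with 28610001 had 0.98 and 0.80, and in i4i5ZRS 0.82 in both maps (-0.01, -0.23 to 0.22). Its pair with 28510001 had 0.80 and 0.69, and 0.83 against 0.67 in i4i5ZRS (-0.30, -0.58 to -0.03). In i4i5ZRS the first and second of these intervals include 0.

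ES cells differed from limb at more pairs and in another pattern. At 138 pairs of the stretch ES cells were 1.5-fold or more above wild type limb (2.24% of all pairs at these separations were) and at 4 they were that far below (5.41% of all pairs). Of the 138 pairs 99 joined the lower with the upper section, 39 the middle with the upper section, and 12 involved the last bin. On recovered counts without balancing the counts were 42 and 10. Against wild type midbrain 25 pairs were higher in ES cells (1.41% of all pairs) and 7 lower (4.82% of all pairs); without the last bin 13 were higher, and on unbalanced counts 0. ES cells lay above all 6 limb maps at 352 pairs (52.9%, against 28.4% of all pairs) and below all 6 at 174 pairs (26.1%, against 38.8% of all pairs). With the midbrain maps included, ES cells lay above all 8 tissue maps at 258 pairs (38.7%, against 25.1% of all pairs) and below all 8 at 158 pairs (23.7%, against 33.1% of all pairs).

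The pairs with the highest ratio of ES cells over limb joined the lower with the upper section of the stretch. These and the lowest pairs below were named by rule from the only ES cell map. Their ES cell and wild type limb values therefore describe the choice. Bins 28420001 and 28750001 had 0.72 in wild type limb, 0.91 in both midbrain maps and 1.54 in ES cells, but this pair includes the last bin. Bins 28490001 and 28650001 had 0.86 in wild type limb, 1.29 and 1.38 in the midbrain maps of wild type and i4i5ZRS and 1.70 in ES cells, with 1002 contacts in limb and 1885 in ES cells. Bins 28490001 and 28720001 had 0.75 in wild type limb, 0.93 and 0.89 in midbrain and 1.45 in ES cells. At the last of these pairs the tissue maps, midbrain included, lay from 0.67 to 0.93, below the ES cell value that the choice used. On unbalanced counts 0 pairs of the stretch were 1.5-fold higher in ES cells than in wild type midbrain. The lowest ratio was at 28460001 and 28530001, 70 kb apart, where wild type limb had 1.47, wild type midbrain 1.38 and ES cells 0.93. Bins 28380001 and 28510001 had 0.80, 0.88 and 0.62, and bins 28380001 and 28430001 had 0.79, 0.75 and 0.66.

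Subdomains within the stretch were sought from insulation. Around each bin the signal joining the 5 bins below with the 5 bins above was averaged and set on a log2 scale against the average bin of that map, so that a low value marks a bin across which few contacts pass. The mean of the 9 maps gave 3 sub-borders. They lay at 28430001, 360 kb below the Shh promoter bin, with a depth of 0.52 (log2) below its surroundings, at 28540001 (250 kb, depth 0.16) and at 28640001 (150 kb, depth 0.25), and they part the stretch into 4 subdomains of 5, 10, 9 and 11 bins between them. A subdomain is named here by its place between sub-borders and not by the contact inside it. A square of 10 by 10 bins kept 28430001 and 28640001 and lost 28540001. Mean insulation with the 5 by 5 square was -0.37, -0.14 and -0.23 at these 3 bins, against -1.14 at the lower Shh border, 28760001.

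Taken map by map, the sub-borders were placed as follows, where bins less than 50 kb inside the stretch could not be called. Wild type limb and 4 edited limb maps each had 3 of their own, at 28430001, at 28540001 and at 28610001 (28620001 in i4i5). The place of the last one was barely settled in some of these maps: wild type limb and limb i4i5ZRS had -0.28 at 28610001 and -0.27 at 28640001, while ZRSreg had -0.27 and -0.17. The Lmbr1 promoter deletion and ES cells had 28540001 and 28640001. Wild type midbrain had 28640001 alone, and midbrain i4i5ZRS had 28640001 and a shallow one at 28550001. At 28540001 insulation was -0.23 in wild type limb, -0.09 with the Lmbr1 promoter deleted, 0.03 and 0.06 in the midbrain maps and -0.08 in ES cells, so that in midbrain this bin was crossed at about the average of the map. At 28430001 wild type limb had -0.44, wild type midbrain -0.36 and ES cells -0.52, but in the Lmbr1 promoter, midbrain and ES cell maps the lowest bin nearby was 28400001 (28410001 in ES cells), which lies too near the end of the stretch to be called. The depth at 28430001 was 0.45 and 0.42 in the midbrain maps. Depth is taken against the highest values within 100 kb, so it does not show a separate dip at this bin. At 28420001, 28430001 and 28440001 wild type midbrain had -0.33, -0.36 and -0.24, and the Lmbr1 promoter map -0.33, -0.34 and -0.25, each a small dip. Midbrain i4i5ZRS had -0.31, -0.28 and -0.16 and ES cells -0.524, -0.519 and -0.371, with no dip at 28430001. At 28640001 wild type limb had -0.27, wild type midbrain -0.19 and ES cells -0.35.

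**Figure D5:**
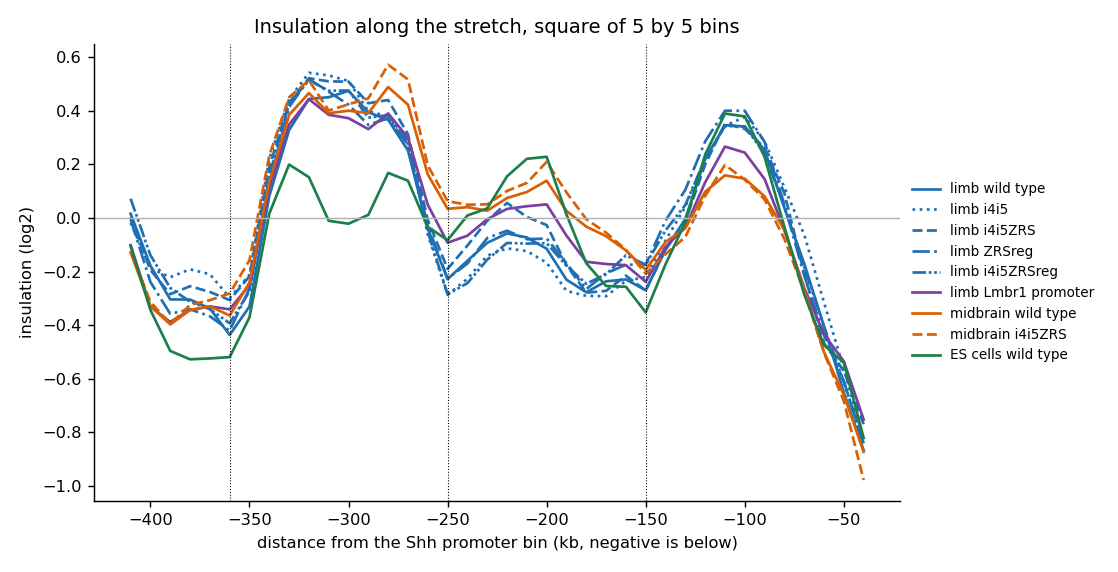
Insulation (log2, square of 5 by 5 bins; y axis) along the stretch in the 9 maps, against distance from the Shh promoter bin in kb (x axis, negative below it), with dotted lines at the 3 sub-borders and no error drawn. At 250 kb below the promoter bin the limb maps dip below 0 and the midbrain maps do not, and near 300 kb below it ES cells lie near 0 where the other maps lie between 0.37 and 0.53.

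The second subdomain, 28440001 to 28540000, was the most compact in tissue. Its 36 inner pairs had 1.40 in wild type limb, from 1.35 to 1.47 over the 6 limb maps, 1.38 and 1.45 in the midbrain maps and 1.10 in ES cells. The log2 ratio of ES cells over limb was -0.35 (-0.38 to -0.32), while midbrain over limb was -0.02 in each genotype, with intervals that include 0. Insulation at 28490001, inside this subdomain, was 0.48 in wild type limb and 0.40 in midbrain, and ES cells had -0.02. The same subdomain met the fourth one, 28650001 to 28760000, at 0.80 in wild type limb, while wild type midbrain had 1.02 and ES cells 1.33, log2 ratios to limb of 0.35 (0.31 to 0.40) and 0.74 (0.70 to 0.78). With balanced signal it was thus less compact inside in ES cells and met the far end of the stretch more often. The subdomain ratios were not run under other scalings, and the fourth subdomain includes the thinly covered last bin. The first subdomain, 28380001 to 28430000, met the fourth at 0.95 in wild type limb, and at 1.29 and 1.35 in the maps of wild type midbrain and ES cells. The third, 28550001 to 28640000, met the fourth at 0.89, 0.90 and 0.89, with midbrain over limb at 0.02 (-0.02 to 0.05) in wild type and 0.06 (0.02 to 0.10) in i4i5ZRS.

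The 5 pairs named for the highest mean over the 9 maps lay above 1 in every map. At some of them single maps were near their mean over the stretch, such as ES cells at 1.15 against 1.12. The highest mean over the maps was at 28440001 and 28490001, 50 kb apart, with 1.68. Wild type limb had 1.65, wild type midbrain 1.59 and ES cells 1.42. Next was 28440001 and 28540001, the first bin of the second subdomain and the sub-border above it, with 1.64, 1.75 and 1.16 in the same maps, and then 28400001 and 28650001, 250 kb apart, with 1.23, 1.65 and 1.57. The pair of 28490001 and 28540001 had 1.37, 1.51 and 1.15, and that of 28660001 and 28720001, inside the upper end, had 1.37, 1.20 and 1.38. ES cells were thus the lowest of the 9 maps at the 3 pairs in the second subdomain or at its upper sub-border, and midbrain was the lowest at the pair inside the upper end. By bin, 28440001 had the highest mean contact with the rest of the stretch (1.27 over the 9 maps, wild type limb 1.17, midbrain 1.45, ES cells 1.41), and 28740001 the lowest (0.868). Midbrain over limb was above 0 at 36 of 38 bins in wild type and in i4i5ZRS alike. The largest values were 0.34 at 28420001 in wild type and 0.30 at 28400001 in i4i5ZRS, both in the lower end, and the lowest were -0.08 and -0.10 at the last bin, 28750001. ES cells over limb was above 0 at 38 of 38 bins and largest at 28720001, at 0.41, in the upper end.

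The deletions on the other side of Shh came with small differences over the whole stretch. Against wild type limb the log2 ratio over the 666 pairs was 0.01 for i4i5, 0.04 for i4i5ZRS (0.03 to 0.06), 0.01 for ZRSreg and 0.01 for i4i5ZRSreg, and midbrain i4i5ZRS over wild type midbrain was 0.01; the intervals of i4i5, ZRSreg, i4i5ZRSreg and of the midbrain ratio include 0. The 5 limb ratios share the wild type map. With the i4i5ZRS limb map set against the mean of the ZRSreg and Lmbr1 promoter maps, which are G4 too, the ratio was -0.02, and the same reference gave -0.050 for i4i5 and -0.053 for i4i5ZRSreg. As signal over the bin total, the ratios to wild type limb were -0.043 for i4i5, -0.057 for i4i5ZRS, -0.030 for ZRSreg and -0.045 for i4i5ZRSreg, so the sign of each of these small ratios depends on the scaling. By section some ratios were larger. Within the lower section (66 pairs) the ratio to wild type limb was 0.12 for i4i5 (0.08 to 0.15, 54 pairs higher). It was 0.09 for i4i5ZRS (0.06 to 0.12, 48 pairs higher), 0.02 for ZRSreg (-0.01 to 0.05) and 0.03 for i4i5ZRSreg (0.01 to 0.06). Midbrain i4i5ZRS over wild type midbrain was 0.07 there (0.03 to 0.10). Within this section these ratios were not run under other scalings. In all 6 comparisons 0 of the 666 pairs were 1.5-fold higher and 0 were 1.5-fold lower. Of all pairs at these separations 1.27% were higher in i4i5, 0.821% in i4i5ZRS, 0% in ZRSreg, 0.874% in i4i5ZRSreg, 0.0107% with the Lmbr1 promoter deleted and 0.64% in midbrain i4i5ZRS. Those lower were 0%, 0.0427%, 0.032%, 0.0107%, 0% and 0.0533% in the same order.

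The map of the Lmbr1 promoter deletion stood apart from the other limb maps. Its mean over the stretch was 0.11 above wild type limb on the log2 scale (0.10 to 0.13; 469 of 666 pairs higher). It lay above the other 5 limb maps at 345 pairs (51.8%, against 20.9% of all pairs), where the wild type, i4i5, i4i5ZRS, ZRSreg and i4i5ZRSreg maps each lay above the other 5 at 11, 89, 91, 56 and 74 pairs. Over all pairs these maps did so at 12.8%, 23.6%, 14.3%, 14.3% and 14.1%. At 313 pairs (47%, against 6.57% of all pairs) it lay above the other 5 limb maps and below both midbrain maps. By section its ratio to wild type limb was 0.24 (0.20 to 0.27) between the lower and upper sections, 0.12 between the lower and middle sections and -0.08 within the upper section. The wild type midbrain ratios in these blocks, which share the limb control, were 0.41, 0.26 and -0.15. As a share of the map's signal with no expected value, the whole stretch had -0.01 and the lower with upper section 0.03, so this excess depends on the expected value of the map. Against wild type limb, deletion, strain and library cannot be told apart in a single merged map. Against the other 4 edited limb maps, which are G4 as well, deletion and library differ together. The cause was not tested.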

How the data were processed

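Capture Hi-C was made from limb buds, midbrain and ES cells. Per the labels' protocols, cells were fixed with 2% formaldehyde, cut with DpnII and enriched with custom SureSelect probes. Tools and builds named in the submitters' processing notes are mm9, Juicer, SAMtools, Bowtie2 and cutadapt; how duplicates were handled is not given in the sources used here. Each deposited map holds a balanced signal for pairs of 10 kb bins; its file name says that the authors merged the samples of a group, applied KR balancing and used a mapping quality of 30. Balancing gives every bin of a map the same total. The series design calls the wild type replicates biological and the edited ones technical. 2 of the 3 wild type limb titles share a library number, 1 ES cell sample is labelled E10.5, and 1 ES cell title and its merged map differ in a library suffix.

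Pairs not listed were taken as 0. Observed over expected used the mean at the same separation over the whole map. Whole counts (100% within 0.01 of a whole number in all 9 maps) gave exact Poisson intervals of means and exact binomial (Clopper-Pearson) intervals of ratios (95%). No source used here names molecular identifiers, so read pairs may repeat a molecule, and merged samples add their own spread: these intervals cover counting error only. The count recovery and the ratios were tested on simulated data. A sub-border is the lowest bin within 50 kb of the mean of 9 maps, at least 50 kb inside the stretch, and 0.1 or more below the lower of the highest values within 100 kb on its 2 sides. Named pairs are the 5 highest of the mean of 9 maps and the 3 highest and 3 lowest ratios of midbrain and of ES cells over limb, at 50 kb or more and 50 kb apart in 1 of the 2 bins. The stretch, the comparisons and the rules were chosen with earlier results of these data known. Alternatives were other expected values, separations, smoothing, squares, references, counts without balancing, thinning and scaling by the bin total. Python 3.11.15, numpy 2.4.6, scipy 1.17.1 and matplotlib 3.10.9 were used.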

Additional observations from a re-analysis of the deposited data

How the results depend on the processing

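Midbrain over limb and ES cells over limb kept their direction over the whole stretch under all alternatives run, with log2 ratios from 0.066 to 0.24 (wild type midbrain), 0.13 to 0.22 (i4i5ZRS midbrain) and 0.12 to 0.27 (ES cells), and so did the 3 ratios of the lower with the upper section. Maps below follow the order limb wild type, i4i5, i4i5ZRS, ZRSreg, i4i5ZRSreg, Lmbr1 promoter, midbrain wild type, midbrain i4i5ZRS, ES cells. The cause of a move was not tested unless the alternative states it. With recovered counts and no balancing, mean observed over expected of the stretch was 1.26, 1.29, 1.25, 1.24, 1.27, 1.34, 1.48, 1.46 and 1.39. With the median as the expected value it was 0.989, 1.004, 1.03, 0.994, 0.999, 1.06, 1.12, 1.14 and 1.16. At 50 kb or more it was 0.953 in wild type limb, 1.05 with the Lmbr1 promoter deleted, 1.13 and 1.13 in midbrain and 1.15 in ES cells. With the expected value from outside the stretch it was 1.12, 1.12 and 1.13 in the last 3 maps. Log2 ratios are given as wild type midbrain over limb, i4i5ZRS midbrain over limb, ES cells over limb and ES cells over midbrain. They were 0.23, 0.22, 0.14 and -0.088 on unbalanced counts and 0.066, 0.13, 0.12 and 0.059 as signal over the bin total. With the median expected value the first, second and last were 0.18, 0.15 and 0.040. At 50 kb or more the first 3 were 0.24, 0.20 and 0.27. With the expected value from outside, the first and the third were 0.22 and 0.24. Without the last bin ES cells over midbrain was -0.00074, so the order of these maps is not settled. Ratios of the 5 edited limb maps to wild type were -0.043, -0.057, -0.030, -0.045 and -0.0075 as signal over the bin total. On unbalanced counts i4i5ZRS, ZRSreg and the Lmbr1 promoter deletion had -0.015, -0.029 and 0.091, and midbrain i4i5ZRS over wild type midbrain -0.020. Against the G4 reference i4i5, i4i5ZRS and i4i5ZRSreg had -0.050, -0.022 and -0.053. The Lmbr1 promoter ratio was 0.10 with the median and 0.14 at 50 kb or more. So the sign of all 5 edited limb ratios and of the midbrain i4i5ZRS ratio changed under 1 or more of these settings.

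By section, unbalanced counts gave 0.45 (wild type midbrain), 0.42 (i4i5ZRS midbrain), 0.46 (ES cells) and 0.19 (Lmbr1 promoter) for the lower with the upper section. They gave 0.18, 0.20 and 0.14 (both midbrain ratios, then ES cells) for the middle with the upper. Within the upper section they gave -0.062, -0.044, -0.28 and -0.11 (the same and the Lmbr1 promoter). As signal over the bin total the lower with upper section had 0.32 (wild type midbrain) and 0.028 (Lmbr1 promoter). The lower with middle section had 0.14 (wild type midbrain), 0.0038 (ES cells) and -0.039 (Lmbr1 promoter). The middle with upper had 0.076 and 0.19 (midbrain) and -0.022 (Lmbr1 promoter). The upper section had -0.087 (i4i5ZRS midbrain) and 0.053 (ES cells). The median gave 0.32 for i4i5ZRS midbrain in the lower with upper section, and 50 kb or more gave -0.081 for ES cells within the upper section. Depths of the sub-borders 28430001, 28540001 and 28640001 were 0.63, 0.25 and 0.59 on unbalanced counts. That of 28540001 was 0.23 with a square of 3 by 3 bins and -0.019 with 10 by 10. A move there is one beyond the SD of the depth over the 9 maps.

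Counts of pairs past 1.5-fold rested on the smoothing. Single bin pairs gave 69 higher and 4 lower (wild type midbrain over limb), 64 and 4 (i4i5ZRS midbrain), 11 lower in ES cells than limb, and 41 and 23 (ES cells over midbrain). For the 5 edited limb maps they gave 7, 4, 2, 1 and 14 higher and 9, 6, 1, 6 and 1 lower, and for midbrain i4i5ZRS over wild type midbrain 3 and 6. The 5 by 5 mean gave 3 and 0 higher in midbrain, 0 lower in ES cells than limb and 0 lower in ES cells than midbrain. Unbalanced counts gave 31 and 24 higher in midbrain, 42 higher and 10 lower in ES cells than limb, and 0 higher in ES cells than midbrain, which was 13 without the last bin. Thinned to the 1177173 contacts of the shallowest map, midbrain had 35 and 20, while ES cells over limb fell from 138 to 124 and the edited maps stayed at 0. Pairs with both midbrain maps outside the limb range were 216 above and 38 below as single bin pairs, and 19 below on unbalanced counts. No paired analysis was possible because each group is 1 merged map, and leaving out replicates was not possible for the same reason. The scaling by bin total, leaving out the last bin or 1 limb map, thinning for the levels, and both scalings by section were chosen after seeing the data.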
